A study of Mus musculus with 24 samples.

Results

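The genes described here are 10 chaperones and sensors of endoplasmic reticulum (ER) stress: Hspa5, Hsp90b1, Calr, Pdia4, Dnajb9, Sdf2l1, Herpud1, Xbp1, Atf6 and Ern1. They were chosen by name, as the rows of the gene table that carry these symbols. All 10 were found among the 24043 genes of the table, and all 10 were among the 12389 genes tested.

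The study asked how the change in gene expression that accompanies myotube formation differs between normal and low oxygen. All groups are C2C12 cells, an established line of mouse myoblasts that divide in serum-rich medium and can form multinucleated muscle fibres when serum is withdrawn. Growth medium (GM) held 10% fetal bovine serum, and differentiation medium (DM) held 2% horse serum with ITS, a supplement of insulin, transferrin and selenium. Each medium was used at 21% oxygen and at 2% oxygen, which gives 4 groups, each with biological replicates A and B. RNA was extracted with Trizol and sequenced as stranded total RNA in 8 libraries. The other 16 of the 24 samples, 8 of H3K27me3 chromatin and 8 of input DNA, were not analysed here. The days spent in differentiation medium and the length of the exposure to 2% oxygen are not given in the sources used here, and the cells of every group come from a single line.

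The ER folds secreted and membrane proteins with the help of lumenal chaperones, and unfolded proteins there trigger the unfolded protein response. It has 3 arms, named after their membrane sensors: IRE1 (gene Ern1), which splices the Xbp1 mRNA into the form that encodes an active transcription factor, ATF6 (gene Atf6), a transcription factor released from the membrane by proteolysis, and PERK (gene Eif2ak3), which slows translation and raises ATF4 and CHOP. XBP1 and ATF6 are known to switch on chaperone and degradation genes, and muscle cells are known to engage parts of this response while they differentiate.

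Known targets of ATF6 and XBP1 carry the ER stress response element, a CCAAT box and a CCACG box 9 bases apart, and a shorter form exists with 1 base between the boxes. The RefSeq promoter table (GRCm38.p6, 250 bases before to 50 after each start) was searched on both strands for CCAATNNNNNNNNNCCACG, for the shorter form ATTGGNCCACG and for TGACGTGG, the core of another element of the response. Of the 10 genes, 9 have an entry there, all but Atf6. The element was found in 39 of 32851 promoters (0.119%), the shorter form in 12 (0.0365%) and the core in 222 (0.676%). Among the genes described here, Hspa5, Hsp90b1 and Calr held the element, Herpud1 held the shorter form and no entry held the core. Only exact letters were counted. Sites that differ from them by a base were not searched for, so a window with no match may still hold a related site. The motif letters do not overlap in these windows. The 250 bases before the RefSeq start of these 4 genes are printed 5′ to 3′ on the strand of the gene, with the matches in capitals, because these are the members whose own promoter carries a match. The windows are chr2:34771840-34772089 (plus strand) for Hspa5, chr10:86705445-86705694 (minus strand) for Hsp90b1, chr8:84846932-84847181 (minus strand) for Calr and chr8:94386179-94386428 (plus strand) for Herpud1.
Hspa5: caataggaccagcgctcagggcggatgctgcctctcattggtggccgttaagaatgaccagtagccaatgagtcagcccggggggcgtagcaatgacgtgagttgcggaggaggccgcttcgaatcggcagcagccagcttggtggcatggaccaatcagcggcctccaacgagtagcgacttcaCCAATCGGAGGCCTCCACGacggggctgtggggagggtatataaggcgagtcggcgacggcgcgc
Hsp90b1: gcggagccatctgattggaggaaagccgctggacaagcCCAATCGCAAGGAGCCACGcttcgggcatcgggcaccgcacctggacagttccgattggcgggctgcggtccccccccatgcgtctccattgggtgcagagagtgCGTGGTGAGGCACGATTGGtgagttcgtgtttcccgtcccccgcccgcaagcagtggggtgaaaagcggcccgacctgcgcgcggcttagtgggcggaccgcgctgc
Calr: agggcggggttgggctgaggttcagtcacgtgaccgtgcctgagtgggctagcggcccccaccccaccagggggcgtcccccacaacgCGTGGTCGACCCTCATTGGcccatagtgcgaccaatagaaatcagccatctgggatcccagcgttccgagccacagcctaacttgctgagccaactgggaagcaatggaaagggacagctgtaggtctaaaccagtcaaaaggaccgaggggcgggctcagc
Herpud1: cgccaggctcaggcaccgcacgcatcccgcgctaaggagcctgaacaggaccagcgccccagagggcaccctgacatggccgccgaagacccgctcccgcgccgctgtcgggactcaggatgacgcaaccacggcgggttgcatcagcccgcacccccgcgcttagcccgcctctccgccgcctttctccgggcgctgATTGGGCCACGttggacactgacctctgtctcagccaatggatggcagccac
In Hspa5 the match runs from 65 to 47 bases before the start. Hsp90b1 has 2 matches, from 212 to 194 bases before the start and, on the other strand, from 107 to 89 bases before it. In Calr the match lies on the other strand, from 162 to 144 bases before the start, and in Herpud1 the shorter form lies from 52 to 42 bases before it. A match is a description of the letters and does not show that a factor binds there.

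Values are FPKM, fragments scaled to transcript length and to the mapped fragments of the library, so levels can be compared between genes per length. Library sums ran from 480018 to 534167 FPKM. The relative depth, read from the most common ratio of low values between each library and the deepest one, ran from 0.633 to 1. The DM libraries at 2% oxygen stood apart from each other: 613 genes differed more than 2-fold between them, against 56 to 71 in the other groups, and the proliferation gene Mki67 was at 3.46 FPKM in replicate A and 23.6 FPKM in replicate B. The 10 genes differed less there, by at most 0.32 on the log2 scale (Xbp1). Myog, which marks differentiation, averaged 11.1 FPKM in GM and 2609 FPKM in DM at 21% oxygen, but 0.392 and 3.32 FPKM at 2% oxygen. Slc2a1, a glucose transporter gene induced by low oxygen, averaged 45.2 and 53.9 FPKM in GM and DM at 21% oxygen and 354.0 and 549.1 FPKM at 2% oxygen. The 5 myoblast markers were Myod1, Myf5, Des, Cdh15 and Msc. At 21% oxygen they summed to 388 to 466 FPKM in GM and 766 to 779 FPKM in DM. At 2% oxygen they summed to 108 to 115 FPKM in GM and 56.4 to 85.9 FPKM in DM. Much of the sum at 21% oxygen was Des, which averaged 211 FPKM in GM and 479 FPKM in DM. With DM at 21% oxygen 2 of the 5 were higher at an adjusted p under 0.05 in limma and 3 were not called, against 25.5% of all genes higher. Of 12 markers of other cell types, 11 stayed under 1 FPKM in every library (highest 0.204 FPKM), and Krt18, Alb and Plin1 were at 0 throughout. The exception was Cd68, a lysosomal gene abundant in macrophages, at 1.76 to 3.57 FPKM in 6 libraries and at 25.8 and 42.8 FPKM in DM at 2% oxygen, where the leukocyte gene Ptprc was at 0 and 0.0137 FPKM. The summed level of the 12 markers was 26.0 to 43.1 FPKM in DM at 2% oxygen and 1.97 to 3.73 FPKM elsewhere. In bulk RNA, fewer cells of a type and less RNA per cell cannot be told apart.

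All 10 genes were expressed in every library, from 5.46 FPKM (Sdf2l1 in DM at 21% oxygen) to 849 FPKM (Calr in DM at 2% oxygen). Together they took 0.188% to 0.214% of the summed FPKM in the 4 GM libraries, 0.331% to 0.335% in DM at 21% oxygen and 0.352% to 0.393% in DM at 2% oxygen. The share was thus higher in each DM library than in any GM library. The genes that carried it differed in part with oxygen, while Hspa5 was high in both DM groups. Changes were tested with limma on log2(FPKM + 1) over all 12389 genes, and a gene is said to rise or fall where the adjusted p is under 0.05.

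**Figure D1:**
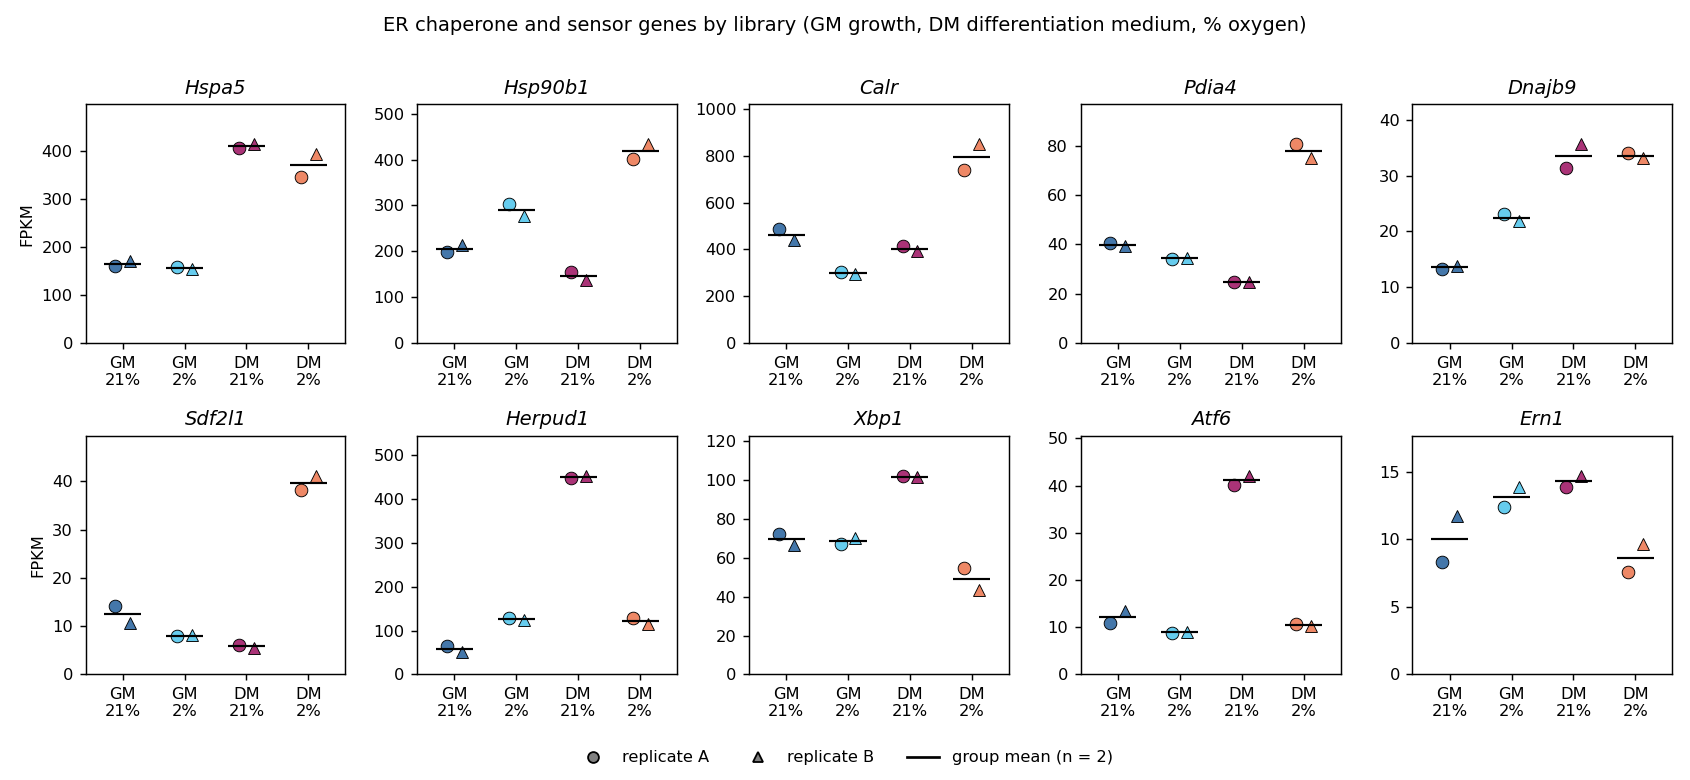
FPKM of each of the 10 genes (vertical axes from 0, different for each gene) in the 4 groups on the horizontal axis; circles are replicate A, triangles replicate B and bars the mean of 2 libraries. Calr, Pdia4, Hsp90b1 and Sdf2l1 are highest in DM at 2% oxygen, while Herpud1, Atf6 and Xbp1 are highest in DM at 21% oxygen.

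With the change to DM at 21% oxygen, 6 of the 10 genes rose and 3 fell. Over all genes tested 66.5% were called, 25.5% higher and 41% lower. With the same change of medium at 2% oxygen, 6 rose and 2 fell, against 40.9% of all genes called, 23.3% higher and 17.6% lower. The 6 that rose were not the same 6: Hspa5 and Dnajb9 rose at both oxygen levels, Herpud1, Atf6, Xbp1 and Ern1 rose at 21%, and Calr, Pdia4, Hsp90b1 and Sdf2l1 rose at 2%. The median change of the 10 genes was 0.52 at 21% oxygen and 0.54 at 2%, and that of all genes was -0.20 and 0.07. With median-of-ratios scaling between libraries the median of all genes at 21% oxygen was 0.03, so small changes in that comparison are best read against this shift.

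At 2% against 21% oxygen in GM, 3 of the 10 genes rose (Herpud1, Dnajb9 and Hsp90b1) and 3 fell (Calr, Sdf2l1 and Atf6). Over all genes 41.4% were called in that comparison, 13.5% higher and 28% lower. In DM, 4 genes were higher at 2% oxygen (Sdf2l1, Pdia4, Hsp90b1 and Calr) and 4 were lower (Herpud1, Atf6, Xbp1 and Ern1), against 65.2% of all genes called, 37.5% higher and 27.7% lower. The share of the 10 genes called in the last comparison, 8 of 10, is near that of all genes. The interaction, which is the change with DM at 2% oxygen minus that at 21%, passed the threshold for 9 of the 10 genes, positive for 4 and negative for 5. Of all genes 54.1% had such an interaction, 35.4% positive and 18.7% negative. The comparisons that share a group share its libraries, so they are not independent of each other.

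**Figure D2:**
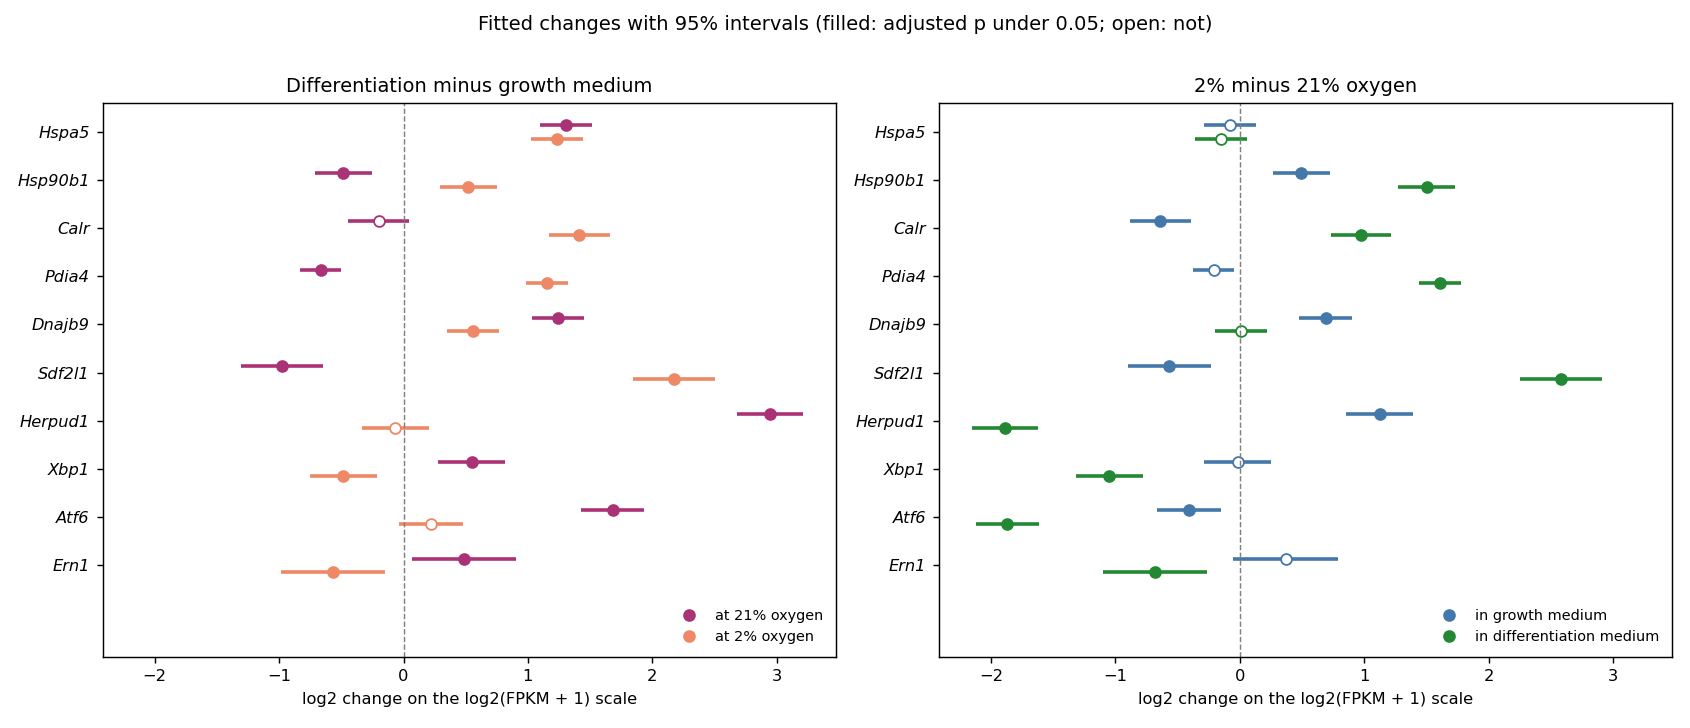
Fitted log2 change of each gene on the log2(FPKM + 1) scale (horizontal axes) with its 95% interval; the left panel shows DM minus GM at 21% and at 2% oxygen, the right panel 2% minus 21% oxygen in GM and in DM, and open points did not pass an adjusted p of 0.05. Sdf2l1 ran from -0.97 to 2.17 between the oxygen levels in the left panel, and Herpud1 from 2.94 to -0.07.

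Hspa5 encodes BiP, the main Hsp70 chaperone of the ER lumen, which also holds the sensors inactive. It was at 161 and 170.2 FPKM in GM at 21% oxygen, 159 and 154 FPKM in GM at 2%, 406 and 415 FPKM in DM at 21% and 346 and 394 FPKM in DM at 2% oxygen. Every DM library was above every GM library, and within each medium the libraries at 2% oxygen lay just below those at 21%. The rise with DM was 2.48-fold at 21% oxygen (log2 change 1.31 ± 0.09 SE, limma adjusted p 2.77e-05) and 2.37-fold at 2% (1.23 ± 0.09, limma adjusted p 0.0003). Oxygen did not pass the threshold in GM (-0.08 ± 0.09, limma adjusted p 0.51) or in DM (-0.15, 95% interval -0.36 to 0.06). Hspa5 was the only gene of the 10 whose interaction was not called (-0.07, 95% interval -0.37 to 0.22). The last 2 statements depend on the scale and on 1 library: with median-of-ratios scaling the value in DM was -0.36 (limma adjusted p 0.00766) and the interaction -0.40 (limma adjusted p 0.0278), and without DM replicate B at 2% oxygen the value in DM was -0.25 (limma adjusted p 0.0299).

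Dnajb9 encodes ERdj4, a J-domain co-chaperone of BiP that also acts in degradation and keeps IRE1 in check. Its level was 13.3 and 13.8 FPKM in GM at 21% oxygen, 23.1 and 21.8 FPKM in GM at 2%, 31.3 and 35.6 FPKM in DM at 21% and 34.0 and 33.2 FPKM in DM at 2% oxygen. The groups stood in steps from GM at 21% to GM at 2% to DM, with the DM groups overlapping. The rise with DM was 2.47-fold at 21% oxygen (log2 change 1.24 ± 0.09 SE, limma adjusted p 3.52e-05) and 1.50-fold at 2% (0.56 ± 0.09, limma adjusted p 0.00356). In GM it rose 1.66-fold at 2% oxygen (0.69 ± 0.09, limma adjusted p 0.00135). The interaction was -0.68 ± 0.12 (limma adjusted p 0.00391).

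Sdf2l1 encodes a lumenal component of BiP complexes that keeps clients soluble. It had the widest range of the lumenal genes, 6.84-fold between its lowest and highest group. The libraries gave 14.2 and 10.7 FPKM in GM at 21% oxygen, 7.88 and 8.18 FPKM in GM at 2%, 6.16 and 5.46 FPKM in DM at 21% and 38.3 and 41.2 FPKM in DM at 2% oxygen. No groups overlapped, and the DM groups were the lowest and the highest. It fell 2.15-fold with DM at 21% oxygen (log2 change -0.97 ± 0.14 SE, limma adjusted p 0.000837) and rose 4.95-fold with DM at 2% (2.17 ± 0.14, limma adjusted p 0.000248), which gives an interaction of 3.15 ± 0.20 (limma adjusted p 4.8e-05). In GM it fell by 0.57 on the log2 scale at 2% oxygen (limma adjusted p 0.0173). That call was lost without GM replicate A at 21% oxygen (-0.38, limma adjusted p 0.0602) and without either GM library at 2% (limma adjusted p 0.0935 and 0.0746).

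Pdia4 encodes ERp72, a protein disulfide isomerase. It was at 40.6 and 39.3 FPKM in GM at 21% oxygen, 34.2 and 34.5 FPKM in GM at 2%, 24.9 and 24.7 FPKM in DM at 21% and 80.7 and 75.0 FPKM in DM at 2% oxygen. Here too the groups did not overlap and the DM groups lay at the ends. Pdia4 fell 1.61-fold with DM at 21% oxygen (log2 change -0.67 ± 0.07 SE, limma adjusted p 0.000204), by 0.40 on the log2 scale with median-of-ratios scaling. At 2% oxygen it rose 2.26-fold (1.15 ± 0.07, limma adjusted p 0.000225), and the interaction was 1.82 ± 0.10 (limma adjusted p 2.76e-05). In GM the oxygen difference was -0.21 ± 0.07 and lay at the threshold (limma adjusted p 0.0514). It was called in 5 of 17 alternatives, such as without an expression filter (limma adjusted p 0.0385), and was -0.09 with median-of-ratios scaling (limma adjusted p 0.496).

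Calr encodes calreticulin, the calcium-binding lectin chaperone of the lumen, and was the most abundant of the 10 genes per length in 5 of the 8 libraries. It gave 488 and 438 FPKM in GM at 21% oxygen, 301 and 292 FPKM in GM at 2%, 414 and 392 FPKM in DM at 21% and 739.5 and 849 FPKM in DM at 2% oxygen. DM at 2% oxygen was the highest group and GM at 2% oxygen the lowest, with the groups at 21% oxygen between them. The change with DM at 21% oxygen was not called (log2 change -0.20 ± 0.10 SE, limma adjusted p 0.127) and was 0.08 with median-of-ratios scaling. With DM at 2% oxygen Calr rose 2.68-fold (1.41 ± 0.10, limma adjusted p 0.000318). At 2% oxygen it fell 1.56-fold in GM (-0.64 ± 0.10, limma adjusted p 0.0033) and was 1.97-fold higher in DM (0.97 ± 0.10, limma adjusted p 0.000204), and the interaction was 1.61 ± 0.14.

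Hsp90b1 encodes GRP94, the Hsp90 of the ER, whose clients include integrins and growth factors of the insulin family. Its level was 198 and 213 FPKM in GM at 21% oxygen, 303 and 278 FPKM in GM at 2%, 155 and 138 FPKM in DM at 21% and 402 and 433 FPKM in DM at 2% oxygen. At 2% oxygen each library was above every library at 21%, in both media. Hsp90b1 was the only gene of the 10 to rise at 2% oxygen in both media, 1.41-fold in GM (log2 change 0.50 ± 0.10 SE, limma adjusted p 0.00698) and 2.85-fold in DM (1.51 ± 0.10, limma adjusted p 2.14e-05). With DM it fell 1.40-fold at 21% oxygen (-0.49 ± 0.10, limma adjusted p 0.0039) and rose 1.44-fold at 2% (0.52 ± 0.10, limma adjusted p 0.00647), with an interaction of 1.01 ± 0.14. The fall was not called with median-of-ratios scaling (-0.21, limma adjusted p 0.101). The smaller rises were each lost without 1 library: that in GM without GM replicate A at 2% oxygen (0.43, limma adjusted p 0.0595) and that with DM without GM replicate B at 2% (0.46, limma adjusted p 0.0568).

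The libraries of DM at 2% oxygen, which stood apart in proliferation genes and in Cd68, gave similar values for the lumenal genes. Without replicate A of that group the change with DM at 2% oxygen was 2.22 for Sdf2l1, 1.51 for Calr, 1.10 for Pdia4 and 0.58 for Hsp90b1. Without replicate B these changes were 2.12, 1.31, 1.21 and 0.47. The rise of these 4 genes with DM at 2% oxygen was thus of similar size with either library alone, while the part that the summed myoblast markers and Cd68 play in it was not tested.

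Herpud1 encodes HERP, a membrane protein that anchors the ER degradation complex, and it showed the widest range of the 10 genes, 7.78-fold between groups. It was at 63.6 and 52.2 FPKM in GM at 21% oxygen, 129 and 125 FPKM in GM at 2%, 448 and 453 FPKM in DM at 21% and 129 and 114 FPKM in DM at 2% oxygen. DM at 21% oxygen was far above every other library, and the groups at 2% oxygen overlapped. Herpud1 rose 7.78-fold with DM at 21% oxygen (log2 change 2.94 ± 0.11 SE, limma adjusted p 2.57e-06), while with DM at 2% the value was -0.07 (95% interval -0.33 to 0.20, limma adjusted p 0.68). At 2% oxygen it rose 2.19-fold in GM (1.12 ± 0.11, limma adjusted p 0.00051) and was 3.71-fold lower in DM (-1.89 ± 0.11, limma adjusted p 1.49e-05). The interaction was -3.01 ± 0.16 (limma adjusted p 2.34e-05), opposite in sign to that of Sdf2l1 and of similar size.

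Atf6 encodes the ATF6 sensor and transcription factor. Its mRNA was at 11.0 and 13.4 FPKM in GM at 21% oxygen, 8.73 and 9.09 FPKM in GM at 2%, 40.2 and 42.1 FPKM in DM at 21% and 10.8 and 10.3 FPKM in DM at 2% oxygen. DM at 21% oxygen stood alone, and the other 3 groups lay between 8.73 and 13.4 FPKM. Atf6 rose 3.37-fold with DM at 21% oxygen (log2 change 1.68 ± 0.11 SE, limma adjusted p 2.25e-05), and at 2% the change was 0.22 (95% interval -0.03 to 0.48, limma adjusted p 0.142). In DM it was 3.90-fold lower at 2% oxygen (-1.87 ± 0.11, limma adjusted p 1.29e-05), and the interaction was -1.46 ± 0.15 (limma adjusted p 0.000357). In GM it fell by 0.41 on the log2 scale at 2% oxygen (limma adjusted p 0.0221). That call was lost under both other scalings (-0.30 and -0.25), and on leaving out GM replicate B at 21% oxygen (-0.27), either GM library at 2% (-0.38 and -0.43) or either DM library at 21% (-0.41 each).

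Xbp1 encodes the transcription factor that IRE1 activates by splicing, and gene-level FPKM does not separate its spliced from its unspliced mRNA. It was at 72.1 and 66.8 FPKM in GM at 21% oxygen, 67.2 and 70.0 FPKM in GM at 2%, 102 and 101 FPKM in DM at 21% and 54.5 and 43.5 FPKM in DM at 2% oxygen. The GM groups overlapped, with DM at 21% oxygen above them and DM at 2% below. The rise with DM at 21% oxygen was 1.47-fold (log2 change 0.55 ± 0.11 SE, limma adjusted p 0.00472), or 0.82 with median-of-ratios scaling. At 2% oxygen Xbp1 fell 1.40-fold with DM (-0.49 ± 0.11, limma adjusted p 0.0153), a call that was lost without either GM library at 2% oxygen (-0.51 and -0.46, limma adjusted p 0.0667 and 0.0906) or with only the libraries compared (limma adjusted p 0.0632). In DM it was 2.08-fold lower at 2% oxygen (-1.05 ± 0.11, limma adjusted p 0.000228), and the interaction was -1.03 ± 0.16 (limma adjusted p 0.00195).

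Ern1, the gene of IRE1, was the least variable of the 10 across groups (1.67-fold) and among the least abundant. The libraries gave 8.34 and 11.8 FPKM in GM at 21% oxygen, 12.4 and 13.9 FPKM in GM at 2%, 13.9 and 14.7 FPKM in DM at 21% and 7.56 and 9.62 FPKM in DM at 2% oxygen. The spread within a group was up to 0.45 on the log2 scale, close to the size of the changes. GM at 21% oxygen overlapped DM at 2%, and GM at 2% oxygen lay just below DM at 21%. Its rise with DM at 21% oxygen (0.49 ± 0.18 SE, limma adjusted p 0.0445) and its fall with DM at 2% (-0.57 ± 0.18, limma adjusted p 0.0413) barely passed. The first was lost without each of GM replicate A at 21% oxygen (0.26), the DM libraries at 21% (0.53 and 0.45) and the GM libraries at 2% (0.49 each), and without the filter on low values. The other was lost without any of the DM libraries at 21% (-0.57 each), the GM libraries at 2% (-0.64 and -0.49) and DM replicate A at 2% (-0.41), without the filter, with array quality weights and with only the libraries compared. In DM Ern1 was 1.67-fold lower at 2% oxygen (-0.68 ± 0.18, limma adjusted p 0.0126), with an adjusted p of 0.0552 and 0.0774 without either DM library at 21%, and the interaction was -1.05 ± 0.25 (limma adjusted p 0.0114), or 0.0525 as the adjusted p without DM replicate B at 21%.

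The 10 genes thus fell into sets by the level of oxygen at which DM went with a rise, a grouping made after the values were seen and given as a description with no test. Hspa5 and Dnajb9 were high in both DM groups. Calr, Pdia4, Hsp90b1 and Sdf2l1 were highest in DM at 2% oxygen, and Herpud1, Atf6, Xbp1 and Ern1 were highest in DM at 21% oxygen. The mRNA of the ATF6 sensor and that of 4 lumenal genes, of which Calr and Hsp90b1 hold the element printed above, were thus highest in different groups. Hspa5, which also holds the element, averaged 411 FPKM in DM at 21% oxygen and 370 FPKM in DM at 2%. The release of ATF6 by proteolysis is not measured by FPKM, and whether ATF6 plays a part in these levels was not tested.

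**Figure D3:**
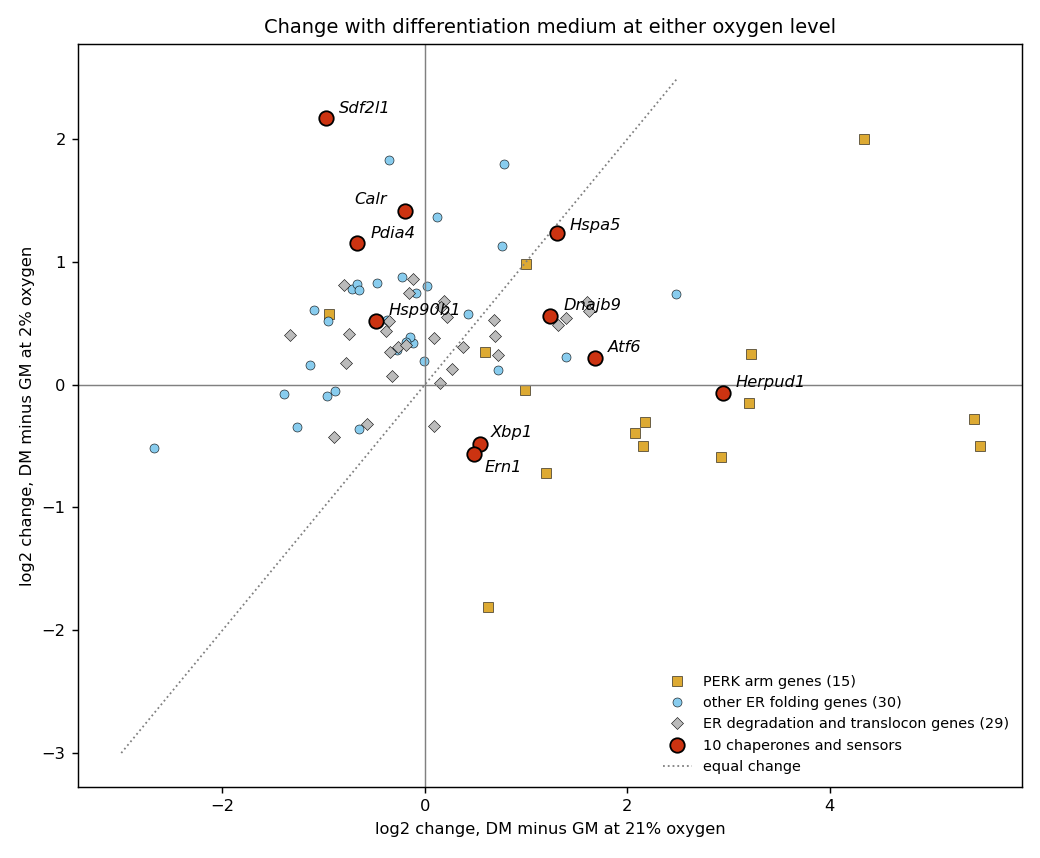
Log2 change with DM at 2% oxygen (vertical axis) against that at 21% oxygen (horizontal axis) on the log2(FPKM + 1) scale; red points are the 10 genes, and the other symbols are 3 lists of related genes. The 2 axes share no library; PERK arm genes lie to the right, with a median of 2.16 at 21% oxygen and -0.28 at 2%, and Sdf2l1, Calr, Pdia4 and Hsp90b1 lie at the upper left.

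Other folding genes of the ER, a list of 30 chaperones, disulfide isomerases, prolyl isomerases and co-chaperones, were all tested. With DM at 21% oxygen 6 rose and 14 fell (median -0.32), and with DM at 2% oxygen 14 rose and 3 fell (median 0.52). In DM 22 were higher and 1 lower at 2% oxygen (median 0.74), and in GM 4 were higher and 11 lower (median -0.17), or 7 and 6 with median-of-ratios or upper-quartile scaling. The interaction was positive for 21 and negative for 3 (median 0.89), against a median of 0.27 over all genes, or 16 and 3 (median 0.57) with median-of-ratios scaling. Among all genes 25.5% rose and 41% fell with DM at 21% oxygen, and 23.3% and 17.6% at 2%. The shares higher and lower were 13.5% and 28% for oxygen in GM, 37.5% and 27.7% in DM and 35.4% and 18.7% for the interaction. Creld2, a lumenal disulfide isomerase, had the largest positive interaction of the list, 2.19 ± 0.18, with 27.7 ± 1.61 FPKM (SD, n = 2) in GM and 21.4 ± 1.95 FPKM in DM at 21% oxygen and 15.5 ± 0.569 and 58.0 ± 9.58 FPKM at 2%. The peroxiredoxin gene Prdx4 (2.16) was the next and Ero1l (-1.75) and Cdnf (-1.17) had the most negative interactions. P4hb, which encodes the main protein disulfide isomerase, was at 419.5 ± 6.46 FPKM in GM and 216 ± 13.1 FPKM in DM at 21% oxygen and at 1015 ± 11.2 and 1457 ± 163 FPKM at 2%.

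Among these folding genes the oxidase gene Ero1l, a known target of the hypoxia response, showed the largest rise at 2% oxygen, from 11.8 ± 1.85 to 499.4 ± 52.8 FPKM in GM (log2 change 5.29) and from 70.4 ± 6.30 to 862 ± 318 FPKM in DM (3.55). It also rose with DM at 21% oxygen (2.49), as did Cdnf (1.40), while Prdx4 (-2.67) and the prolyl isomerase gene Fkbp14 (-1.39) had the largest falls. With DM at 2% oxygen the largest rises were those of Creld2 (1.83) and Hyou1 (1.80), the gene of the Hsp70-like chaperone ORP150, and the largest falls those of Prdx4 (-0.51) and Fkbp2 (-0.36). Hyou1 was high in both DM groups, at 41.7 FPKM at 21% oxygen, against 23.8 FPKM in GM, and at 38.1 FPKM at 2%. In GM, Ero1l and P4hb (1.27) had the largest rises at 2% oxygen and Hyou1 (-1.15) and Creld2 (-0.80) the largest falls. In DM, P4hb (2.74) followed Ero1l, and Cdnf (-0.79, or -0.53 without replicate B) was the gene that fell. Manf, a secreted partner of BiP, rose with DM at 2% oxygen (1.37) and not at 21% (0.12, limma adjusted p 0.166), and its interaction was 1.25. The same held for Pdia6 (0.74 and -0.08, interaction 0.83) and for Dnajc3 (0.80 and 0.02, interaction 0.79), which encodes an inhibitor of PERK. Pdia3, which works with calreticulin, fell with DM at 21% oxygen (-0.72) and rose at 2% (0.78, interaction 1.50). Canx, the membrane-bound relative of calreticulin, rose at both (0.43 and 0.57), and its interaction was not called (0.15, limma adjusted p 0.375).

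The list for ER degradation and the translocon had 29 of 30 genes tested, since Derl3 was listed at 0 in all groups except DM at 2% oxygen, where it averaged 0.0301 FPKM. With DM at 21% oxygen 9 rose and 9 fell, or 15 and 5 with median-of-ratios scaling, and with DM at 2% oxygen 19 rose and 3 fell (median 0.41). At 2% oxygen 4 were higher and 8 lower in GM, and 12 higher and 10 lower in DM, or 5 and 6 in GM and 9 and 11 in DM with median-of-ratios scaling. The interaction was positive for 11 and negative for 6, or 8 and 8 with median-of-ratios scaling. Over all genes the shares higher and lower were 25.5% and 41% with DM at 21% oxygen and 23.3% and 17.6% with DM at 2%. They were 13.5% and 28% for oxygen in GM, 37.5% and 27.7% for oxygen in DM and 35.4% and 18.7% for the interaction. The counts of this list for oxygen and for the interaction lie near those shares. Some genes of the same complexes moved apart. Derl1 (1.62) and Edem3 (1.60) had the largest rises with DM at 21% oxygen, like Herpud1, and Edem2 (-1.33) and the lectin gene Os9 (-0.90) the largest falls. At 2% oxygen in DM, Edem2 (1.70) and Edem1 (1.17) were higher and Edem3 (-1.02) and Derl1 (2.02-fold) lower, and their interactions were 1.74 for Edem2, 0.87 for Edem1, -0.93 for Edem3 and -1.02 for Derl1. Sel1l, whose product anchors the ubiquitin ligase complex, rose with DM at both oxygen levels (1.40 and 0.55) and at 2% oxygen in GM (0.52), and fell by 0.33 on the log2 scale at 2% oxygen in DM, a call lost without DM replicate B at 2% oxygen (-0.19, limma adjusted p 0.143). With DM at 2% oxygen Ssr1 (0.86) and Sec61b (0.81), genes of the translocon, had the largest rises and Os9 (-0.43) and Herpud2 (-0.33), the relative of Herpud1, the largest falls. In GM, Os9 (0.44) rose with Sel1l at 2% oxygen, and Ssr2 (-0.93) and Sec61b (-0.82) had the largest falls, while the interaction of Sec61b was 1.61.

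The list named after the PERK arm, which attenuates translation and works through ATF4, had all 15 genes tested. Whether PERK drove the levels of these mRNAs was not tested. With DM at 21% oxygen 14 rose (median 2.16) and only Eif2ak3, the gene of PERK itself, fell. At 2% oxygen in GM 10 rose and 1 fell (median 1.52), or 10 and 0 with either other scaling. With DM at 2% oxygen 3 rose and 6 fell (median -0.28), and in DM 2 were higher and 9 lower at 2% oxygen. The interaction was negative for 12 and positive only for Eif2ak3 (1.52 ± 0.14), with a median of -2.46. Across all genes 25.5% rose and 41% fell with DM at 21% oxygen, and 23.3% and 17.6% at 2%. The shares higher and lower were 13.5% and 28% for oxygen in GM, 37.5% and 27.7% in DM and 35.4% and 18.7% for the interaction. Atf4, the transcription factor of the arm, was at 169 ± 10.8 FPKM (SD, n = 2) in GM and 714 ± 12.0 FPKM in DM at 21% oxygen, and at 427 ± 1.60 and 325 ± 13.1 FPKM at 2%. Ddit3, the gene of CHOP, was at 33.7 ± 5.05 and 153 ± 3.17 FPKM at 21% oxygen and at 236 ± 4.52 and 169.6 ± 46.9 FPKM at 2%. The ATF4 and CHOP targets Trib3 and Chac1 had the largest rises with DM at 21% oxygen (5.48 and 5.43) and at 2% oxygen in GM (4.59 and 3.30), and the most negative interactions (-5.98 and -5.71). Eif2ak3 ran the other way, at 6.32 ± 0.558 and 2.79 ± 0.163 FPKM in GM and DM at 21% oxygen and at 6.32 ± 0.0382 and 9.88 ± 0.0771 FPKM at 2%. With DM at 2% oxygen Atf3 (2.00) and Eif2s1 (0.99) had the largest rises and Cebpb (-1.81) and Bbc3 (-0.72) the largest falls. The libraries of DM at 2% oxygen differed for Atf3, at 5.23 and 14.0 FPKM, both above the 1.23 and 1.62 FPKM of GM. Its rise was 2.64 without replicate A of that group and 1.37 without replicate B, and the fall of Bbc3 was no longer called without replicate A (-0.47, limma adjusted p 0.0778). In GM the gene that fell at 2% oxygen was Eif2s1 (-0.33). In DM, Eif2ak3 (1.52) and Ddit4 (0.98) were higher and Atf3 (-2.45, or -1.81 and -3.08 without replicate A or B) and Chac1 (-2.41) lower at 2% oxygen.

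Of 20 genes for other sensors and for the processing of ATF6 and Xbp1, 17 were tested. With DM at 21% oxygen 4 rose and 7 fell, or 6 and 2 with median-of-ratios scaling, and with DM at 2% oxygen 8 rose and 3 fell. At 2% oxygen 2 were higher and 3 lower in GM and 5 higher and 3 lower in DM, or 4 and 5 with median-of-ratios scaling. The interaction was positive for 8 and negative for 3, or 6 and 4 with either other scaling. The shares of all genes higher and lower were 25.5% and 41% with DM at 21% oxygen and 23.3% and 17.6% at 2%. They were 13.5% and 28% for oxygen in GM, 37.5% and 27.7% for oxygen in DM and 35.4% and 18.7% for the interaction. Mbtps1, the site-1 protease that releases ATF6, was at 50.9 ± 1.60 FPKM (SD, n = 2) in GM and 19.6 ± 0.0594 FPKM in DM at 21% oxygen and at 43.0 ± 0.634 and 51.4 ± 9.27 FPKM at 2%. It thus fell with DM at 21% oxygen (-1.33), and its interaction was 1.57. Mbtps2, the site-2 protease, was lower at 2% oxygen in DM (-1.09), with an interaction of -0.82. Atf6b, the paralogue of Atf6, did not follow it: its change with DM was -0.17 at 21% oxygen (limma adjusted p 0.228) and 0.83 at 2%, with an interaction of 1.00, and in GM it fell by 0.91 on the log2 scale at 2% oxygen. Wfs1, which encodes an ER membrane protein, rose with DM at 21% oxygen (2.07) as Atf6 did, and also at 2% (0.55, or 0.35 without DM replicate B), with an interaction of -1.52, and was lower at 2% oxygen in DM (-1.68). With DM at 21% oxygen Nfyb, a subunit of the factor that binds CCAAT boxes, rose (0.89) and Creb3l2 fell (-1.22), and with DM at 2% Creb3l2 (-0.62) and Creb3l4 (-0.77) fell. At 2% oxygen in GM Creb3l4 (0.58) and Bax (0.50) rose and Bak1 (-0.89) fell, and Bax, a pro-apoptotic gene whose product also binds IRE1, was higher in DM (1.27).

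For comparison, 30 chaperones of the cytosol and mitochondria were counted the same way. With DM 17 rose and 8 fell at 21% oxygen and 19 rose and 1 fell at 2%. At 2% oxygen 7 were higher and 14 lower in GM, or 8 and 7 with median-of-ratios scaling, and 12 higher and 13 lower in DM. The interaction was positive for 9 and negative for 5, or 7 and 9 with median-of-ratios scaling. Of all genes 25.5% rose and 41% fell with DM at 21% oxygen, and 23.3% and 17.6% at 2%. The shares higher and lower were 13.5% and 28% for oxygen in GM, 37.5% and 27.7% in DM and 35.4% and 18.7% for the interaction. The cytosolic Hspa8, a relative of Hspa5, fell with DM at 21% oxygen (-1.25) and was not called at 2% (-0.19, limma adjusted p 0.257), although it was without DM replicate A (-0.36, limma adjusted p 0.0147), and the inducible Hspa1b fell at 21% (-1.50) and was higher at 2% oxygen in DM (2.88), as was Hspa1a (2.60). The counts for Hspa1a and Hspa1b are uncertain because these copies are nearly identical. The mitochondrial Hspa9 rose with DM at 21% oxygen (2.21) and at 2% oxygen in GM (1.13) and was lower at 2% oxygen in DM (-1.05), with interactions of -2.18 for Hspa9, -1.56 for its partner Dnaja3, 2.40 for Hspa1b and 2.10 for Hspa1a. The small heat shock gene Cryab rose with DM at both oxygen levels (1.93 and 2.29) and was lower at 2% oxygen in both media (-1.39 in GM and -1.03 in DM, or -0.52 without DM replicate A). With DM at 2% oxygen the co-chaperone gene Stip1 rose (1.39) and Ahsa1 fell (-0.69), and at 2% oxygen in GM Dnajb1 rose (0.68) and Hspb1 fell (-1.33).

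The promoter element could be set beside these changes, although its genes were gathered with the results known. Among the 10 genes and the lists, 10 genes with a RefSeq entry hold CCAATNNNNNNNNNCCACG: Hspa5, Hsp90b1, Calr, Canx, Creld2, Dnajc3, Ero1lb, Pdia6, Syvn1 and Derl3. The first 9 were tested, and all 9 rose with DM at 2% oxygen, by 0.52 to 1.83 on the log2 scale. The smallest of these rises, that of Hsp90b1, was lost without 1 library, as given above, and Ero1lb reached at most 3.98 FPKM. Of all genes 23.3% were higher in that comparison. In the sets these genes came from, 6 of the 10 genes described here, 14 of 30 folding genes and 19 of 29 degradation genes rose. Those counts, and the like counts below, include the 9 genes themselves. Sdf2l1 and Pdia4 rose too, with no exact match in their windows. With DM at 21% oxygen 2 of the 9 rose (Hspa5 and Canx), 3 fell (Hsp90b1, Creld2 and Ero1lb) and 4 were not called. At 2% oxygen in DM 7 of the 9 were higher and none lower. Of all genes 37.5% were higher and 27.7% lower there. Of the 10 genes described here 4 were higher, as were 22 of 30 folding and 12 of 29 degradation genes. The interaction was positive for 6 and negative for none, against 35.4% positive and 18.7% negative over all genes. It was positive for 4 of the 10 genes described here, 21 of 30 folding and 11 of 29 degradation genes. The other 9 tested genes in the table whose promoter holds the element did not share the pattern of the first 9. With DM at 2% oxygen 1 rose (Alg12, 0.96), 3 fell and 5 were not called. At 2% oxygen in DM 2 of these were higher and 4 lower, and their interaction was positive for 4 and negative for 3. None of the PERK arm promoters (14 with an entry), those of the other sensors (16) or those of the cytosolic and mitochondrial chaperones (25) held it. The element is in 0.119% of all promoters, so finding none in sets of this size says little. Herpud1, with the shorter form, was among the genes that rose at 21% oxygen and not at 2%, while Dnajb11, the only other listed gene with that form, rose with DM at both (0.76 and 1.13).

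**Figure D4:**
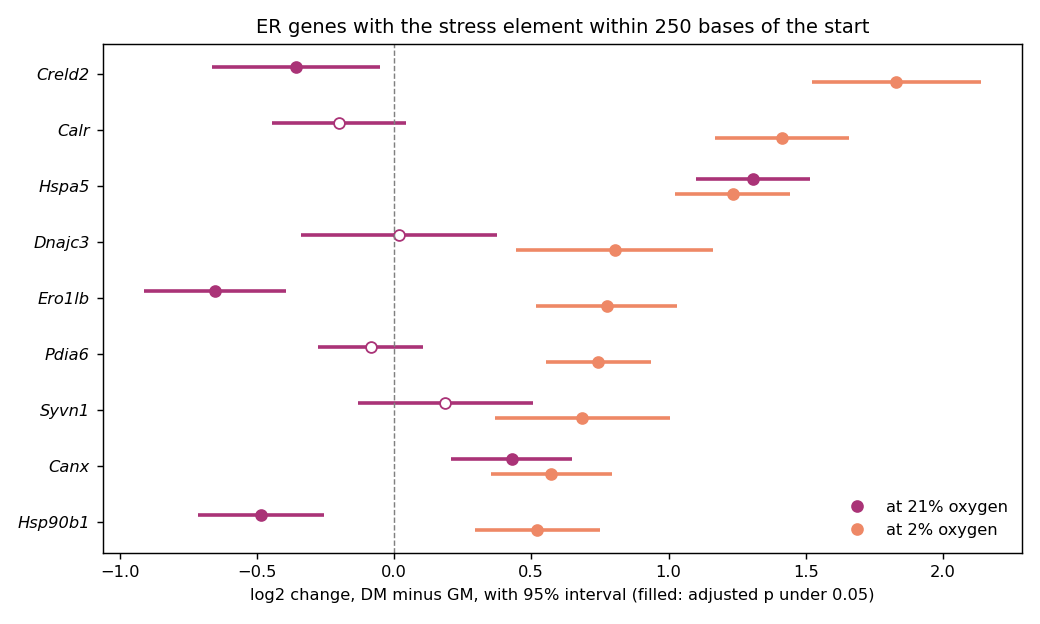
Log2 change with DM at 21% and at 2% oxygen (horizontal axis, log2(FPKM + 1) scale, with 95% intervals) for the 9 tested genes of the ER lists whose RefSeq promoter holds the ER stress response element; filled points passed an adjusted p of 0.05. All 9 points at 2% oxygen lie between 0.52 and 1.83, while those at 21% oxygen lie between -0.65 and 1.31.

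Likeness of pattern was measured by Pearson's r of log2(FPKM + 1) over the 8 libraries, as a description of 4 groups of 2 libraries. The genes most like Hspa5 were Hsph1, a cytosolic Hsp70 exchange factor (r = 0.99, at 8.95, 9.32, 23.7 and 22.7 FPKM in GM at 21%, GM at 2%, DM at 21% and DM at 2% oxygen), Trp53rk, Rfk, St8sia2, Rnf128, 9630033F20Rik, Dnm2 and Srp54b. Those most like Xbp1 were Elp3, Rcc2, 2810008D09Rik, BC029214, Hfe, Eml2, Adssl1 and Aldh6a1, with r from 0.996 (Elp3) down to 0.97 (Aldh6a1). Those most like Ern1 were BC018507, Naf1, Ncald, Hipk1, Cep85l, Snhg1, Palld and Samd4, with r from 0.977 down to 0.923. No other gene of the set of 10 was among them. Pdia4 and Sdf2l1 were close to each other (r = 0.99), Sdf2l1 ranking 4 among 12388 genes for Pdia4 and Pdia4 ranking 5 for Sdf2l1.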

How the data were processed

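RNA-seq of 8 C2C12 libraries was used (4 groups of medium and oxygen, replicates A and B); H3K27me3 and input libraries were not analysed here. The authors deposited one gene table whose values are FPKM, by their behaviour: they are not whole numbers, and low values step with gene length. STAR 2.5.1b, Cufflinks 2.2.1 and the build mm9 are named in the submitters' processing notes; which annotation was counted, whether strand was used and whether libraries were scaled to each other is not given in the sources used here. Absolute depth is unknown, so no counting interval is given. A column went to the sample whose title carries its medium, oxygen and letter.

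Genes with a mean of at least 1 FPKM in 1 group (12389) were fitted on log2(FPKM + 1) with limma 3.58.1 (R 4.3.3, eBayes with trend). The 8 libraries shared 4 group means, with 4 residual and 2.61 prior degrees of freedom. The SE of a gene pools its spread over the 4 groups, so it does not measure the wider spread of the DM libraries at 2% oxygen. Tests were two-sided, with Benjamini-Hochberg adjustment over all genes of a contrast and a threshold of 0.05. Changes on this scale understate those of genes near 1 FPKM. The fit was tested on simulated data. The 10 genes, the lists and the tests were chosen with earlier results of these data known. Genes of a list are named by rule: in each list and contrast the 2 called genes that rose most and the 2 that fell most, and 20 fixed genes. Promoter letters and coordinates come from RefSeq (GRCm38.p6), matched by symbol and not by position. Alternatives were other scalings, pseudocounts (0.1 FPKM), filters, weights, robust moderation, a replicate block, only the libraries compared and each library left out.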

Additional observations from a re-analysis of the deposited data

Results flagged for a closer look

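The response to differentiation medium differed between 2% and 21% oxygen, by limma's interaction term at an adjusted p under 0.05, for 9 of the 10 genes. The interaction is the log2 change with differentiation medium at 2% oxygen minus that at 21%. It was positive for Sdf2l1 (3.15), Pdia4 (1.82), Calr (1.61) and Hsp90b1 (1.01), and each of these 4 genes rose with differentiation medium at 2% oxygen. It was negative for Herpud1 (-3.01), Atf6 (-1.46), Ern1 (-1.05), Xbp1 (-1.03) and Dnajb9 (-0.68), and each of these 5 genes rose at 21% oxygen. Of all genes tested 54.1% had a called interaction. Dnajb9 differs from the others in that it rose at both oxygen levels, by less at 2%. The interaction of Ern1 missed the threshold without differentiation medium replicate B at 21% oxygen (-1.01, adjusted p 0.0525).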

How the results depend on the processing

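Of 40 calls over the 10 genes and 5 contrasts, 30 were made the same way under every alternative (17 for each contrast, 16 for the interaction). Of 840 alternative values for single genes, 784 kept their direction and side of the threshold, 33 lost it, 10 gained it and 13 changed sign, all 13 for differences that were not called. The cause was not tested for any of them. With median-of-ratios scaling Calr with DM at 21% oxygen was 0.077, and for 2% against 21% oxygen Hspa5 (0.040) and Xbp1 (0.10) in GM and Dnajb9 (-0.19) in DM changed sign; with upper-quartile scaling these last values were 0.093, 0.15 and -0.045. Leaving out each library in turn, Xbp1 for oxygen in GM ran from -0.070 to 0.038, Dnajb9 for oxygen in DM from -0.083 to 0.10, the interaction of Hspa5 from -0.17 to 0.020 and Herpud1 with DM at 2% oxygen from -0.15 to 0.024. With a log2 change of at least 1 also required, 4 genes were called with DM at 21% oxygen, 4 with DM at 2% and 1 for oxygen in GM, against 9, 8 and 6. The share of all genes called under that rule, or with a library left out, is not given here. Such counts therefore do not show whether the 10 genes lose more calls than other genes. Leaving out each library in turn, 5 to 8 were called with DM at 2% oxygen (5 without GM replicate B at 2%) and 3 to 7 for oxygen in GM (3 without GM replicate A at 2%). Higher calls over all genes made up 38.4% with DM at 21% oxygen and 53.6% with median-of-ratios scaling, 32.6%, 43.4% and, with upper-quartile scaling, 49.3% for oxygen in GM, 57.5% and 46.5% for oxygen in DM, and 65.5%, 47.3% and 53.6% for the interaction. The letters A and B showed no sign of pairing the libraries (r of the A deviations between groups from -0.17 to 0.04). A low r does not show that they were handled apart, and the labels do not say. With the replicate block 9, 8, 6, 8 and 9 of the 10 genes were called in the 5 contrasts, as without it. Over all genes 7931, 4453, 4634, 7802 and 6273 were called. With one library left out of a group, the lone library is assumed to vary like the other groups. The counts of the lists under other scalings, and their counts and single genes without either library of DM at 2% oxygen, were chosen after seeing the data. Ern1 held its call in 11 of 17 alternatives with DM at 21% oxygen, 9 with DM at 2% and 15 for oxygen in DM.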
